A study of Mus musculus with 23 samples.

Results

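The 10 genes described here encode 8 nuclear receptors that bind lipids, bile acids or foreign compounds, and the 2 PGC1 coactivators that work with several of them: Ppara, Pparg, Ppard, Rxra, Nr1h3, Nr1h4, Nr1i2, Nr1i3, Ppargc1a and Ppargc1b. They were taken by gene symbol from both deposited tables, and all 10 were found in each. Males have 24434 genes listed and females 24940, of which 22852 are in both tables. Bulk RNA-seq was made from the livers of 23 mice, with 5 controls and 6 LKO among the males and 6 of each genotype among the females. By its label every mouse was of B100 genotype, was fed WD for 16 weeks and was in the fed state at necropsy, so the controls differ from the LKO mice only in the genotype term, B100-Control or B100-LKO. The series title places the loss of Cpt1a in the liver. The strain, the age of the mice, the promoter behind the deletion and the meaning of the label B100 are not given in the sources used here. The control males are replicates 1, 2, 3, 4 and 6, and all other groups hold replicates 1 to 6.

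Nuclear receptors are transcription factors switched by small lipophilic ligands, and most of the receptors here bind DNA as a pair with the retinoid X receptor. PPARs sense fatty acids, LXR senses oxysterols, FXR senses bile acids, and PXR and CAR sense foreign compounds and bile acids. The PGC1 coactivators do not bind these DNA sites by themselves and raise transcription when docked on a receptor. Cpt1a encodes the carnitine palmitoyltransferase that commits long-chain fatty acids to mitochondrial oxidation, and PPAR-alpha, itself a sensor of fatty acids, is a known activator of its gene.

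Total counts ran from 14224665 to 19626662 per library. The summed level of 7 hepatocyte markers in CPM (read counts relative to the library total, scaled by TMM factors within the table of 1 sex) was 51687 to 76103 in control males, 49694 to 70461 in LKO males, 79339 to 93094 in control females and 54427 to 84683 in LKO females. By edgeR 0 of the 7 were called in LKO against control; 6 of 7 were below 0 in females, 5 of 7 in males and 7 of 7 with sex as a term, and those at an unadjusted p under 0.05 were 2, 1 and 3. DESeq2 called 0 of the 7 in these fits. In the chi-square per degree of freedom between counts of 2 livers of a group, control male 4 stood apart (84.2 to 121 against the other control males, which were at 11.6 to 42.5 among themselves), as did LKO female 6 (61.8 to 78.4, with 14.04 to 43.04 among the others). Of the adipocyte-defining genes Lep stayed under 0.5 CPM in every library, and Adipoq reached at most 1.26 CPM. Cpt1a itself was 17.6% of control in LKO males (362 ± 51.0 CPM in 5 controls, SD, and 63.9 ± 20.3 in 6 LKO livers; two-sided exact permutation p = 0.00433). In LKO females it was 19.6% of control (383 ± 57.8 against 75.0 ± 8.54 CPM, SD, n = 6 each; two-sided exact permutation p = 0.00216). In bulk liver, fewer cells of a type and less RNA per cell cannot be told apart. The labels number the samples of a group, but nothing states how litters or days were shared, so the p-values measure the spread between these samples.

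Compared per length, with the deposited FPKM (fragments per gene length and library size), the mean levels of the members in controls ran from 0.612 to 88.8. In control males the mean FPKM was 85.2 for Rxra, 65.7 for Nr1h3, 51.2 for Nr1h4, 39.3 for Nr1i2, 9.22 for Pparg, 8.12 for Ppara, 5.52 for Nr1i3, 1.95 for Ppard, 1.09 for Ppargc1b and 0.612 for Ppargc1a. Neighbours whose samples overlapped in that order were Rxra and Nr1h3, Pparg and Ppara, Ppara and Nr1i3, Ppard and Ppargc1b, and Ppargc1b and Ppargc1a. Rxra, LXR-alpha, FXR and PXR were thus above the PPARs and CAR, and the coactivators were lowest. Control females had the same 4 leading genes, with 88.8 FPKM for Rxra, 65.4 for Nr1h3, 58.2 for Nr1h4 and 50.4 for Nr1i2. Below these the order differed, with Nr1i3 at 13.5 FPKM, Ppara at 9.68, Pparg at 5.94, Ppard at 1.83, Ppargc1a at 1.30 and Ppargc1b at 1.24. Overlapping neighbours in control females were Nr1h3 and Nr1h4, Nr1h4 and Nr1i2, Nr1i3 and Ppara, Ppard and Ppargc1a, and Ppargc1a and Ppargc1b. Among the genes tested, Rxra stood at the 95.2 percentile of FPKM in males and Ppargc1a at the 19.2 percentile.

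Promoter windows are printed for the 3 members that differed between the sexes in the tests given further on (Nr1i3, Nr1i2 and Ppargc1a). They were picked as windows that hold the motif marked for their gene. Which start is used in these livers was not tested. Each window runs from 250 bases before to 50 bases after a RefSeq start in GRCm38.p6, 5′ to 3′ on the gene's strand. The counted tables use another build (mm39, per the submitters' processing notes), so these coordinates belong to the sequence and not to the tables. Capitals mark matches to 1 motif per gene: CACGTG, an E-box, in Nr1i3 (window chr1:171213720-171214019, plus strand); ATTGG, the reverse complement of the CCAAT box, in Nr1i2 (window chr16:38294775-38295074, minus strand); CGTCA, the reverse complement of TGACG, the core of the cAMP response element, in Ppargc1a (window chr5:51567676-51567975, minus strand).
Nr1i3: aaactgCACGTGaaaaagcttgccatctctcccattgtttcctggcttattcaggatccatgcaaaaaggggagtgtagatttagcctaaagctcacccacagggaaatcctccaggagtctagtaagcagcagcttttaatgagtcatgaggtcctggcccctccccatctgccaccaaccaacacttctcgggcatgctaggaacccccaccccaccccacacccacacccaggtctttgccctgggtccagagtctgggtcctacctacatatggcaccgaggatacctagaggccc
Nr1i2: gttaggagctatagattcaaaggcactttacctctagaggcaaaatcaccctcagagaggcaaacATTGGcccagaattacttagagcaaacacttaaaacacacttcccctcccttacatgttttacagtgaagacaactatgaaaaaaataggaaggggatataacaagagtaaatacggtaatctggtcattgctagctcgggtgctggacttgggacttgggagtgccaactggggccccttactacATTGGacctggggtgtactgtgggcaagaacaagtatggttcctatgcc
Ppargc1a: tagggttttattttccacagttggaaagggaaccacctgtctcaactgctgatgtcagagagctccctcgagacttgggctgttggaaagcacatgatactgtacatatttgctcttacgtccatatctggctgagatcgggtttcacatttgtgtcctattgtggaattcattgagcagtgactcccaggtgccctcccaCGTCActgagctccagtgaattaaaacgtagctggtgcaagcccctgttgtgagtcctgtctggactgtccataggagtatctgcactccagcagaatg

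Both strands were searched, and the share of all 32851 RefSeq windows of this length with a match was 7.15% for CACGTG, 37.4% for CCAAT and 20.8% for TGACG. Among the members, CCAAT also stood in windows of Ppard and Pparg, and TGACG in windows of Ppara and Ppard. The receptor hexamer AGGTCA stood in 16.3% of all windows and in windows of 3 members: Nr1h4, Pparg and Rxra. Its direct repeats spaced by 1 base (the PPAR type) and by 4 bases (the LXR type) contain the hexamer. They were in 0 of the 13 member windows used, which cover 9 members, and in 0.0396% and 0.0152% of all windows. No window of Ppargc1b was used, because chromosome 18 was left out of the member windows. TTCNNNGAA, the STAT5 type, was in 0 member windows and 8.3% of all. A match describes letters only.

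The first comparison asks how each receptor and coactivator gene is expressed when hepatic Cpt1a is lost. None of the 10 members was called in either sex by edgeR's quasi-likelihood test (Benjamini-Hochberg adjusted p under 0.05, with every tested gene in the adjustment). The call rate over all genes was 0.00724% in males, where Cpt1a was the 1 gene called among 13805, and 1.42% in females (194 of 13684, or 0.928% for higher in LKO). At such rates a count of 0 does not set 10 genes apart from the rest. At an unadjusted p under 0.05 edgeR gave 0 members in each sex, against 12.5% of all genes in males and 15.6% in females. DESeq2 also called 0 members in either sex, with call rates of 0.826% and 4.09%, and Nr1h3 in males was the 1 member under 0.05 before its adjustment. For no member did the LKO and control samples separate without overlap, in comparison with 1.77% of genes in males and 1.59% in females. All 10 members passed the filter on low counts, and all 10 of the 95% intervals lay inside a 2-fold change either way in both sexes. The outermost bounds on the log2 scale were -0.61 (Ppargc1b) and 0.91 (Pparg) in males, and -0.74 (Ppargc1a) and 0.57 (Pparg) in females.

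**Figure D1:**
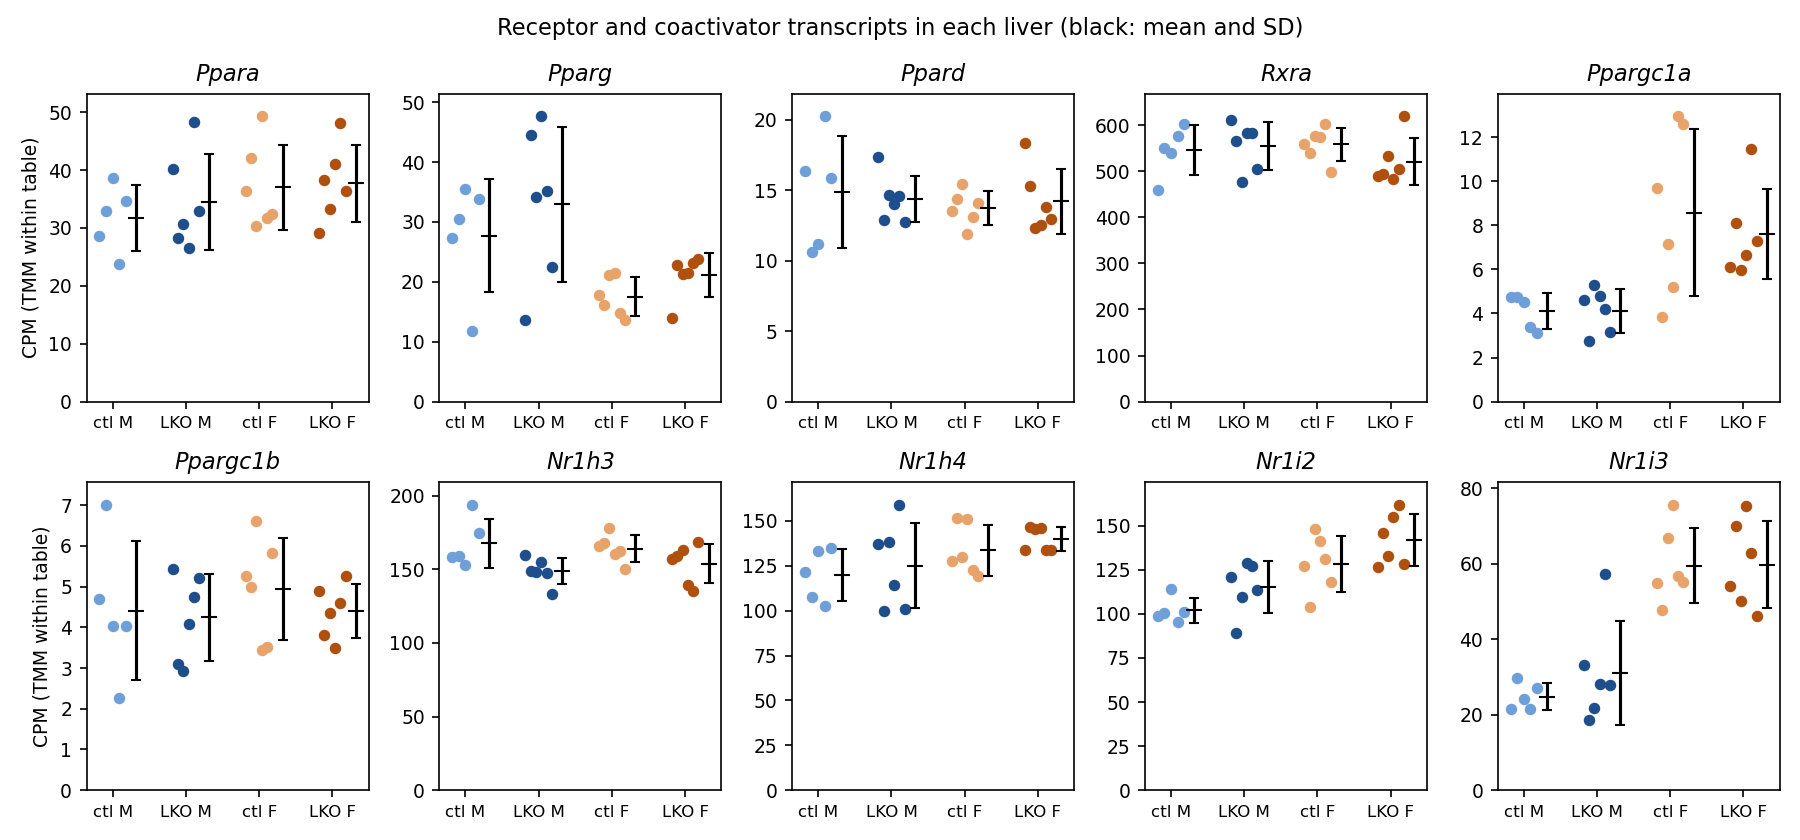
CPM of each member in each liver, by group, with each point 1 sample. For every member the LKO points overlap the control points of the same sex, whereas Nr1i3 in control females (lowest 47.9 CPM) lies above control males (highest 29.8 CPM).

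Among the PPARs, Ppara (the receptor for fatty acids that switches on their oxidation in liver, at 15:85619184-85687020 in the tables' coordinates) was close to control in both sexes. Control males had 28.6, 32.9, 38.6, 23.7 and 34.7 CPM, and LKO males had 26.5 to 48.2 CPM with a median of 31.9. LKO and control males overlapped, with 3 of 6 LKO livers above the control mean, and the log2 fold change was 0.12 (SE 0.16, edgeR adjusted p = 0.824). Control females spanned 30.4 to 49.3 CPM with a median of 34.4, and LKO females 29.1 to 48.2 with a median of 37.3. Female livers of both genotypes covered nearly the same range, and the log2 fold change was 0.02 (SE 0.14, adjusted p = 0.957).

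Pparg (6:115337912-115467360), the PPAR that drives fat storage genes and is low in lean liver, varied most of the receptors among control males. Control males had 27.3, 30.5, 35.4, 11.7 and 33.8 CPM, and LKO males 13.6 to 47.6 with a median of 34.7. Control male 4 stood well below the other controls. LKO over control, the log2 ratio was 0.24 (SE 0.31, edgeR adjusted p = 0.808). It was 0.05 without control male 4, and 0.40 without LKO male 1, the lowest LKO liver at 13.6 CPM. Control females had 13.6 to 21.5 CPM with a median of 16.99, and LKO females 13.9 to 23.9 with a median of 22.2. Of 6 LKO females 5 were above the control mean and 4 above every control, while replicate 1, at 13.9 CPM, lay near the lowest control. Their log2 fold change of 0.27 (SE 0.14, interval -0.03 to 0.57) had the lowest adjusted p of the members in females, 0.368, and was not called.

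Cells other than hepatocytes also make Pparg, among them macrophages and adipocytes. In LKO females 5 of 11 macrophage markers were above 0 and 6 below, with a median log2 fold change of -0.00059 and a lowest value of -0.62. Of these 2 were called, both higher: Trem2 (log2 fold change 1.32, edgeR adjusted p = 0.00314) and Gpnmb (3.22, adjusted p = 0.00256). The summed macrophage list was 618 to 1162 CPM in control females and 802 to 1200 in LKO females. In males it was 377 to 807 CPM in controls and 622 to 1011 in LKO livers. Of 6 adipocyte markers, 2 passed the filter on low counts, Cfd and Car3. By edgeR 0 of them were called in either sex (1 at an unadjusted p under 0.05 in females and 0 in males), and DESeq2 called Car3 lower in LKO females (-0.70, adjusted p = 0.00602). Cfd was above 0 in the same DESeq2 fit (1.54) and was not called. The list also holds Adipoq, Lep, Plin1 and Retn, all below 2 CPM in every library. The summed list was therefore nearly all Cfd and Car3, and measures neither those 4 genes nor the content of adipocytes. It spanned 1074 to 1628 CPM in control females and 580 to 1203 in LKO females. In males it was 1339 to 3829 in controls and 1423 to 2529 in LKO livers. The part of these cells in the Pparg values was not tested.

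Ppard (17:28451674-28520448), the widely expressed remaining PPAR, was the lowest receptor per length. Control males had 16.4, 10.6, 11.2, 20.2 and 15.9 CPM, LKO males 12.8 to 17.3 with a median of 14.3. The LKO males lay inside the spread of the controls (log2 fold change -0.04, SE 0.16, edgeR adjusted p = 0.943). Control females had 11.9 to 15.4 CPM with a median of 13.8, and LKO females 12.3 to 18.3 with a median of 13.4, so that 1 LKO liver exceeded all controls. The log2 fold change was 0.05 (SE 0.10, adjusted p = 0.879). As shares of the summed PPAR FPKM, Ppara and Pparg made up 42.5% ± 3.41 and 46.4% ± 8.71 in control males (SD, n = 5), and 55.3% ± 4.90 and 34.0% ± 4.25 in control females (SD, n = 6). In LKO livers the same shares were 41.9% ± 12.3 and 49.2% ± 14.2 in males, and 51.9% ± 2.94 and 37.8% ± 3.76 in females (SD, n = 6 each). PPAR-gamma transcripts had the larger mean share in males of both genotypes, by less than the SD of the Pparg share. PPAR-alpha transcripts had the larger share in females.

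Rxra (2:27566452-27652969), the partner that pairs with every other receptor described here, had the highest level. Control males had 459, 551, 540.5, 577 and 602 CPM, and LKO males 476 to 611 with a median of 574. The groups overlapped throughout, and the log2 fold change was 0.02 (SE 0.10, interval -0.19 to 0.23, edgeR adjusted p = 0.954). In control females it spanned 499 to 602 CPM with a median of 567, and in LKO females 484 to 619 with a median of 499. Of 6 LKO females 5 lay below the control mean and 3 below every control, but replicate 6 was the highest liver of all. The log2 fold change was -0.10 (SE 0.08, interval -0.27 to 0.07, adjusted p = 0.604), or -0.16 without replicate 6 (adjusted p = 0.287).

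Ppargc1a (5:51611592-51725068), the coactivator known from fasting, gluconeogenesis and mitochondrial biogenesis, was at a low level in these fed livers. Control males had 4.77, 4.75, 4.53, 3.40 and 3.10 CPM, and LKO males 2.74 to 5.27 with a median of 4.40. Both groups covered the same few CPM, and their log2 difference was 0.00 (SE 0.20, interval -0.43 to 0.43, edgeR adjusted p = 0.999). Control females were more dispersed, from 3.84 to 12.9 CPM with a median of 8.43, and LKO females had 5.96 to 11.5 with a median of 6.96. No LKO female lay outside the control range (log2 fold change -0.17, SE 0.27, interval -0.74 to 0.40, adjusted p = 0.821). 3 other genes of the tables overlap Ppargc1a on its strand, and together they held far fewer counts than it did.

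Ppargc1b (18:61431207-61533502), the sister coactivator tied to lipogenesis and lipoprotein secretion, was low as well. Control males had 4.71, 7.01, 4.04, 2.27 and 4.04 CPM, and LKO males 2.93 to 5.43 with a median of 4.42. The controls alone spanned more than the LKO livers, and the log2 fold change was -0.06 (SE 0.26, edgeR adjusted p = 0.948). Control females had 3.44 to 6.63 CPM with a median of 5.13, and LKO females 3.49 to 5.26 with a median of 4.47. Of 6 LKO females 5 were below the control mean and 0 below every control (log2 fold change -0.17, SE 0.18, adjusted p = 0.705). Per length Ppargc1b held 62.6% ± 7.32 of the summed PGC1 FPKM in control males (SD, n = 5) and 50.4% ± 13.1 in control females (SD, n = 6).

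Nr1h3 (2:91014406-91033179) encodes LXR-alpha, the oxysterol sensor that induces sterol efflux and lipogenic genes. It had the lowest adjusted p of the members in males. Control males had 158, 159, 153, 194 and 175 CPM, and LKO males 134 to 159.9 with a median of 149. All 6 LKO males lay below the control mean and 4 lay below every control, although the 2 highest LKO livers overlapped the controls. The log2 fold change was -0.17 (SE 0.08, interval -0.35 to 0.00, edgeR adjusted p = 0.411), or -0.12 without control male 4 (adjusted p = 0.576). Control females had 150.2 to 178 CPM with a median of 164, and LKO females 136 to 169 with a median of 158. There 5 of 6 LKO livers were below the control mean and 2 below every control (log2 fold change -0.09, SE 0.07, adjusted p = 0.600).

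Nr1h4 (10:89290096-89369447) encodes FXR, the bile acid receptor that restrains bile acid synthesis. Control males had 121, 108, 133, 103 and 135 CPM, and LKO males 99.9 to 159 with a median of 126. LKO males fell on both sides of the controls, with 3 above and 2 below all of them (log2 fold change 0.06, SE 0.13, edgeR adjusted p = 0.900). Control females had 119.6 to 152 CPM with a median of 129, and LKO females a tighter 134 to 147 with a median of 139.7. All LKO females lay inside the control range, and the log2 fold change was 0.07 (SE 0.08, interval -0.10 to 0.23, adjusted p = 0.750).

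Nr1i2 (16:38068685-38115186) encodes PXR, which induces Cyp3a genes. Control males had 98.8, 100.8, 114, 95.5 and 100.8 CPM, and LKO males 89.2 to 129 with a median of 117. Of 6 LKO males 5 were above the control mean and 3 above every control, and 1 was below them all. This gave a log2 fold change of 0.17 (SE 0.10, interval -0.04 to 0.39, edgeR adjusted p = 0.493). Control females had 104 to 148 CPM with a median of 129, and LKO females 126 to 162 with a median of 139. Again 5 of 6 LKO livers were above the control mean, with overlapping groups (log2 fold change 0.14, SE 0.10, interval -0.06 to 0.35, adjusted p = 0.510).

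Nr1i3 (1:171041539-171048270) encodes CAR, which induces Cyp2b genes and is known to be held at a higher level in female mouse liver. Control males had 21.4, 29.8, 24.1, 21.4 and 27.2 CPM, and LKO males 18.6 to 57.2 with a median of 28.0. A single LKO male, replicate 5, gave the 57.2 CPM. The log2 fold change was 0.33 (SE 0.24, interval -0.18 to 0.84, edgeR adjusted p = 0.607), and without that liver it was 0.06. Control females had 47.9 to 75.7 CPM with a median of 56.0, and LKO females 46.1 to 75.4 with a median of 58.5. The female groups coincided (log2 fold change 0.01, SE 0.13, interval -0.28 to 0.29, adjusted p = 0.990). Tomm40l overlaps Nr1i3 on the opposite strand with 1340 counts in all male and 1656 in all female libraries, against 4992 and 12075 for Nr1i3. Use of the strand in counting is not given in the sources used here, so reads shared between the genes cannot be told apart.

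**Figure D2:**
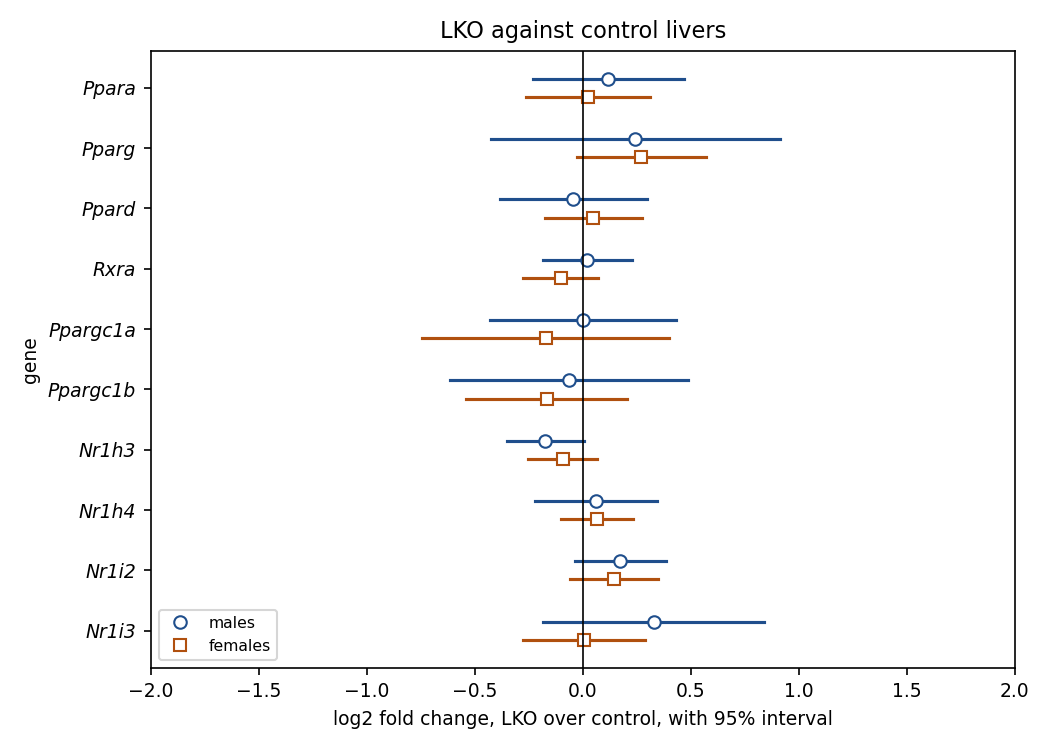
Log2 fold change of LKO over control for each member, males as circles and females as squares, with 95% intervals from edgeR as bars. Every bar lies between -1 and 1, and all bars cross 0.

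Whether the response of a member differed between the sexes was tested as the genotype by sex interaction over all 23 livers. No member was called by edgeR, at a call rate of 0% over 14503 genes, and 0 members had an unadjusted p under 0.05, against 12.9% of genes. DESeq2 called 0 members there as well. The widest difference between the sexes was that of Nr1i3 (-0.32, female minus male log2 fold change, SE 0.29, interval -0.91 to 0.27, adjusted p = 0.667). With both sexes in 1 fit and sex as a term, 0 members were called by edgeR where 0.365% of genes were, and 0 by DESeq2 where 1.8% were. Nr1h3 then had a log2 fold change of -0.13 (SE 0.05, interval -0.24 to -0.02, edgeR adjusted p = 0.271), and Nr1i2 one of 0.16 (SE 0.07, interval 0.02 to 0.30, adjusted p = 0.290). Leaving out control male 4 or LKO female 6 left 0 members called within each sex, in the interaction and in this fit, which then called 32 or 35 genes in place of 53. Nr1h3 and Nr1i2 were the 2 of 10 members with both sexes in 1 fit under an unadjusted p of 0.05, against 13.9% of all genes. In the authors' deposited table the lowest adjusted p of any member was 0.269, for Nr1h3 in males, and 0.408 in females, for Pparg.

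The sexes were compared next, for the level of each member outside the genotype contrast. In control livers 3 of 10 members were called, all higher in females: Nr1i3, Ppargc1a and Nr1i2. The call rate over all 13699 genes was 18%, and 8.8% for higher in females, so the count by itself sets the members little apart from other genes. At an unadjusted p under 0.05 there were 4 members, Pparg being the other one, against 33.1% of genes. Each sex has its own deposited table, so effects of sex and of any separate handling of these tables cannot be told apart. The values that follow are CPM scaled over both sexes together and differ slightly from those above.

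Nr1i3 had 20.7 to 29.0 CPM in control males with a median of 23.3, and 47.6 to 75.6 in control females with a median of 55.5. It was the 1 member whose control groups did not overlap, as was seen for 10.3% of all genes. The log2 difference, female minus male, was 1.30 (SE 0.13, interval 1.02 to 1.58, edgeR adjusted p = 3.78e-05). CAR transcripts were accordingly 21.1% ± 1.35 of the summed PXR and CAR FPKM in control females (SD, n = 6) and 12.3% ± 1.63 in control males (SD, n = 5). Nr1i2 had 92.9 to 109.9 CPM in males with a median of 97.9, and 104 to 147 in females with a median of 128. Its groups overlapped at their edges, and the log2 difference was 0.37 (SE 0.10, adjusted p = 0.0186).

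Ppargc1a had 3.01 to 4.63 CPM in control males with a median of 4.36, and 3.82 to 12.8 in control females with a median of 8.35. The lowest female lay inside the male range, and the log2 difference was 1.09 (SE 0.29, interval 0.45 to 1.72, edgeR adjusted p = 0.0225). This call was lost on leaving out control male 6 (adjusted p = 0.0600) or control female 6 (adjusted p = 0.0516), and with log2(FPKM + 1) in limma (0.48, adjusted p = 0.0531). The Nr1i2 call was lost with library size alone (adjusted p = 0.0544) and without control male 1 (0.35, adjusted p = 0.05002). Pparg went the other way, with 11.4 to 34.1 CPM in males and 13.5 to 21.5 in females (medians 29.7 and 16.8). Its log2 difference of -0.63 (SE 0.22) missed the threshold in edgeR (adjusted p = 0.0670) and passed it in DESeq2 (adjusted p = 0.0357) and without control male 4 (-0.82, edgeR adjusted p = 0.00123). For Ppara, Ppard, Rxra, Ppargc1b, Nr1h3 and Nr1h4 no sex difference was called, with log2 differences from -0.07 for Ppard to 0.26 for Ppara. Without control male 4 the calls of Nr1i3, Ppargc1a and Nr1i2 were kept (edgeR adjusted p of 7.73e-05, 0.0358 and 0.0292).

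The same contrast in LKO livers was added after the control comparison had been seen, and shares no sample with it. The same 3 members were called, all higher in females, where 12.4% of 13778 genes were called and 5.89% were called higher. At an unadjusted p under 0.05 there were 4 members, against 26.8% of genes. Ppargc1a had 2.76 to 5.23 CPM in LKO males and 6.12 to 11.8 in LKO females, and was the 1 member without overlap (6.18% of all genes). Its log2 difference was 0.91 (SE 0.19, edgeR adjusted p = 0.00619). Nr1i3 had 18.8 to 57.8 CPM in males and 47.3 to 77.7 in females, overlapping through LKO male 5, with a log2 difference of 0.97 (SE 0.23, adjusted p = 0.0109). The Nr1i2 range was 90.0 to 130.1 CPM in males and 129 to 167 in females, and its log2 difference of 0.33 (SE 0.10, adjusted p = 0.0427) lost its call in 6 of the 12 fits that left out 1 liver. Pparg differed by -0.61 (SE 0.24, adjusted p = 0.112) and was not called.

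**Figure D3:**
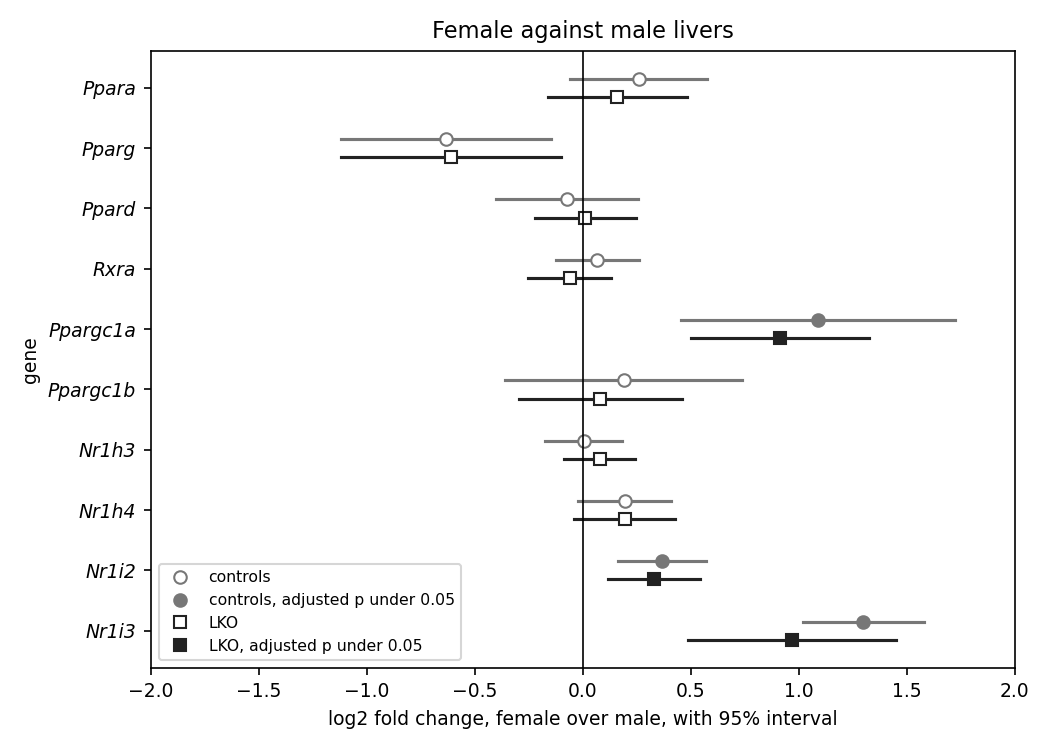
Log2 difference, female minus male, of each member in control and in LKO livers, with 95% intervals from edgeR. Nr1i3 (1.30 in controls, 0.97 in LKO) and Ppargc1a (1.09 and 0.91) lie farthest to the right and Pparg (-0.63 and -0.61) farthest to the left.

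Genes known as targets of these receptors were counted from lists chosen with earlier results of these data known. Among targets of PXR and CAR, 6 of 13 were called higher and 1 lower in control females than in control males, and 6 higher and 2 lower in LKO females than in LKO males. Over all genes 18% were called in controls (8.8% higher) and 12.4% in LKO livers (5.89% higher). The medians of the list were 0.47 and 0.49 on the log2 scale, with medians over all genes of 0.0044 and 0.0055. Cyp2b10, the classical CAR-induced cytochrome, had 0.422 to 2.43 CPM in control males and 3.15 to 32.4 in control females (log2 difference 3.68, SE 0.54, edgeR adjusted p = 0.000787). It was chosen after its values were seen. Among PPAR-gamma targets 0 of 8 tested were called higher and 4 lower in control females, with a median of -1.23, and in LKO females 0 of 9 higher and 3 lower, with a median of -0.56. For targets of PPAR-alpha 3 of 25 were called higher and 3 lower in control females, with a median of -0.09, and 7 higher and 0 lower in LKO females, with a median of 0.09. Of the hepatocyte markers 2 of 7 were called higher in control females and 0 in LKO females (5 at an unadjusted p under 0.05, and 1 higher and 1 lower by DESeq2). Their part in the sex differences was not tested.

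In LKO against control livers the lists of targets stayed uncalled in males. None of the 9 lists had a called member there by edgeR, and at an unadjusted p under 0.05, where 12.5% of all genes were found, there were 3 of 25 PPAR-alpha targets, 3 of 13 PXR and CAR targets, 3 of 11 PGC1 targets, 6 of 22 other nuclear receptors and 1 of 3 bile acid genes repressed by FXR. DESeq2 called 1 gene of these lists in males, among the other nuclear receptors. The list medians on the log2 scale were 0.06 for PPAR-alpha targets, 0.02 for PPAR-gamma targets, 0.12 for LXR targets and 0.32 for PXR and CAR targets, with 0.01 over all genes. Genes induced by FXR had a median of -0.47, with 7 of 8 tested below 0. By edgeR 0 of these 8 had an unadjusted p under 0.05. Of the genes repressed by FXR, 2 of 3 were above 0 and 1 below. PPAR-gamma targets (0 of 9), LXR targets (0 of 11) and coregulators (0 of 15) also had none under that p. The genes with the lowest p of their list in males included Cyp7a1, the rate-limiting enzyme of bile acid synthesis (1.01, SE 0.40, edgeR adjusted p = 0.334), and Nr2f6, an orphan receptor (-0.26, SE 0.07, adjusted p = 0.266). Others were Fabp1 (PPAR-alpha targets, -0.30, adjusted p = 0.324), Lpl (PPAR-gamma targets, 0.51, 0.453), Pltp (LXR targets, -0.23, 0.604) and Fgb (induced by FXR, -0.47, 0.420). Abcc2 (PXR and CAR targets, 0.32, 0.279), Pck1 (PGC1 targets, 0.34, 0.374) and Ncor1 (coregulators, 0.18, 0.495) were the remaining ones.

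In females all 25 PPAR-alpha targets had a log2 fold change above 0, with a median of 0.37 where the median of all genes was 0.0051, and 13 of 25 had an unadjusted p under 0.05 (15.6% of all genes). A single one, Acot2, a mitochondrial acyl-CoA thioesterase, was called by edgeR. It had 8.47 to 29.7 CPM in control and 32.8 to 77.8 in LKO females, which did not overlap (log2 fold change 1.39, SE 0.31, adjusted p = 0.0384). All 7 PPAR-gamma targets tested had an unadjusted p under 0.05, with 6 above 0 and 1 below, and 2 were called, both higher. Cidec, which encodes a protein of lipid droplets, rose from 5.84 to 18.7 CPM in controls to 24.4 to 74.5 in LKO females (log2 fold change 2.01, SE 0.32, adjusted p = 0.00691). Lpl, the lipoprotein lipase, rose from 18.5 to 46.1 CPM to 59.9 to 73.3 (log2 fold change 1.03, SE 0.18, adjusted p = 0.0134). Neither gene had overlapping groups. Among all genes tested in females 1.42% were called by edgeR and 1.59% had groups without overlap. Lpl was also called with both sexes in 1 fit (0.78, SE 0.17, edgeR adjusted p = 0.0403). Macrophages also express Lpl, and the values of the macrophage list given above, 5 markers above 0 and 6 below with Trem2 and Gpnmb called higher, stand beside it. Their part was not tested.

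Among 15 coregulators, Nrip1, a corepressor of nuclear receptors, was the 1 called in females, where 1.42% of all genes were called. It had 5.46 to 7.33 CPM in controls and 8.34 to 12.02 in LKO livers, without overlap (log2 fold change 0.52, SE 0.11, adjusted p = 0.0384 by edgeR). The calls of Acot2 and Nrip1 were each lost in 8 of the 12 fits that left out 1 liver, those of Cidec and Lpl in none of these. The call of Cidec was lost in the fit of all 23 livers, an alternative added for it after its values were seen (2.02, adjusted p = 0.0660 by edgeR). In the other 6 lists edgeR called 0 genes in females. The lowest adjusted p in these belonged to Fasn among LXR targets (-0.96, SE 0.31, adjusted p = 0.139), Abcb4 among genes induced by FXR (0.39, SE 0.09, 0.0538), Slc10a1 among those repressed by it (-0.39, SE 0.12, 0.112), Abcc2 among PXR and CAR targets (-0.22, SE 0.08, 0.176), Cycs among PGC1 targets (0.27, SE 0.07, 0.0758) and Thra among other receptors (-0.60, SE 0.18, 0.113). Counts at an unadjusted p under 0.05 in these lists were 2 of 11, 3 of 8, 1 of 3, 4 of 13, 1 of 11 and 3 of 22, in the same order, against 15.6% of all genes.

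None of the 4 called genes was called for a sex difference in its response to LKO by the interaction test in edgeR. That test called 0 of 14503 genes, so a missing call does not show equal responses. It called 0 genes of the 9 lists. DESeq2 called 2: the PXR and CAR target Abcc2 (-0.55, female minus male, adjusted p = 0.0117), at 0.32 in males and -0.22 in females by edgeR, and the PPAR-alpha target Fgf21, a fasting hormone (2.70, adjusted p = 0.0429). Their edgeR adjusted p were 0.136 and 0.164. The interaction on the log2 scale, female minus male, was 1.88 for Cidec (SE 0.70, edgeR adjusted p = 0.289), 0.91 for Acot2 (SE 0.53, adjusted p = 0.475), 0.51 for Lpl (SE 0.34, adjusted p = 0.543) and 0.48 for Nrip1 (SE 0.15, adjusted p = 0.227). The interval of Nrip1, 0.16 to 0.80, did not include 0 (edgeR unadjusted p = 0.00485). In male livers Cidec was at 10.4 to 307 CPM in controls and 58.1 to 316 in LKO, far above the female level in most livers.

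**Figure D4:**
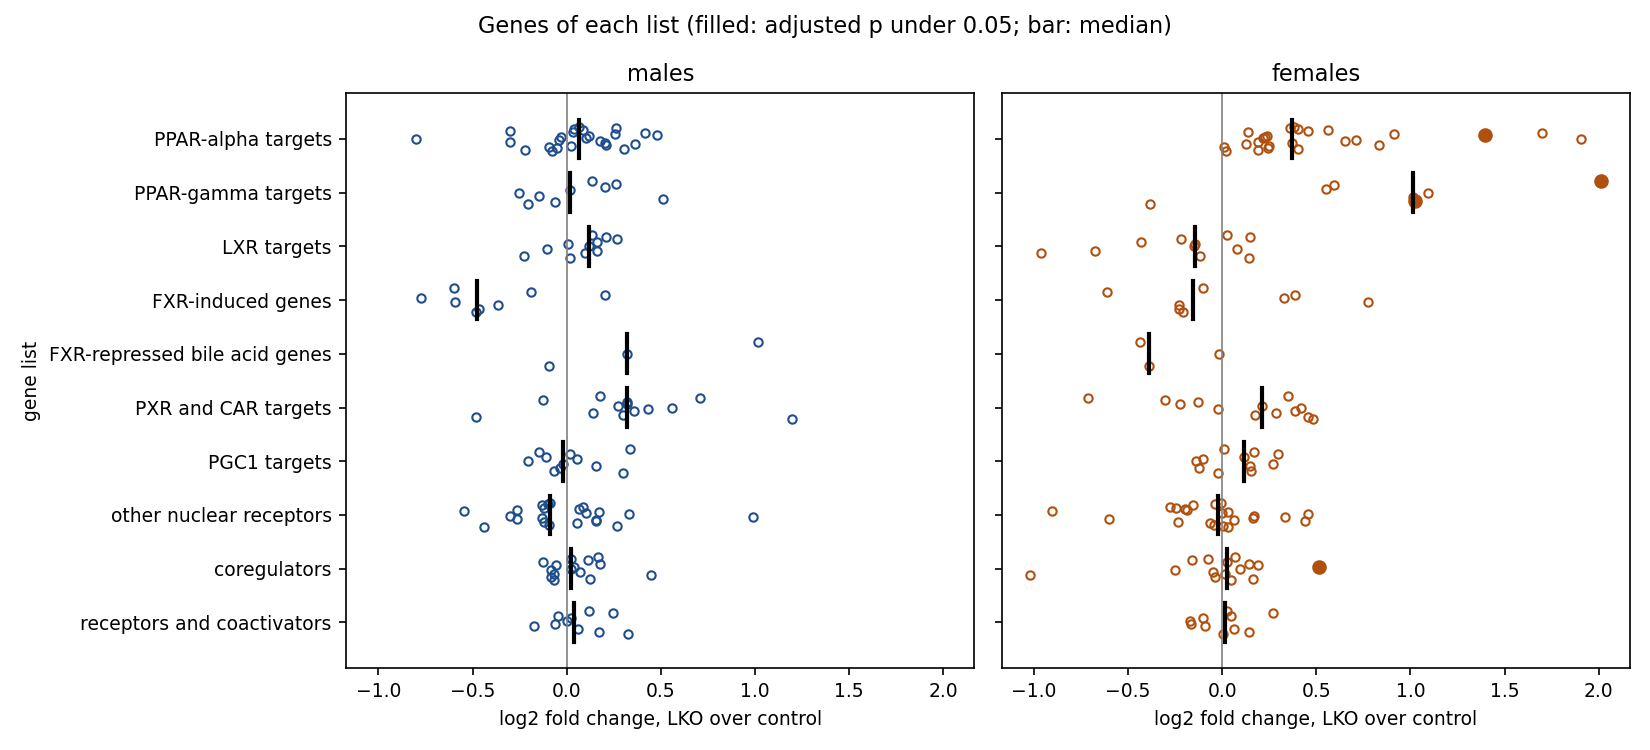
Log2 fold change of LKO over control for every tested gene of each target list, by sex, with the list median. The PPAR-alpha targets of females lie at or above 0.01, and called genes are Acot2, Cidec, Lpl and Nrip1, all in females.

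A few pairs of members also varied together from liver to liver. The share of other gene pairs that did so was not computed. With each group's mean removed from log2(CPM + 1), 45 pairs were correlated over the 23 livers, which share library and scaling, and p-values came from 100000 permutations within groups. The pair of xenobiotic receptors, Nr1i2 and Nr1i3, had r = 0.72 (permutation p = 0.00104, adjusted 0.0344) and rho = 0.79 (p = 7e-05, adjusted 0.00315). Without the 2 livers farthest out in Nr1i2 it was r = 0.63, and within sexes 0.69 over 11 males and 0.83 over 12 females. LKO male 5, the liver farthest out in Nr1i3, was kept in all of these, save that of females. Ppara and Nr1h4 had r = 0.68 (permutation p = 0.00153, adjusted 0.0344) and rho = 0.69 (p = 0.00131, adjusted 0.0295), with r = 0.54 without the 2 livers farthest out in Ppara, 0.74 in males and 0.63 in females. These were the 2 pairs under 0.05 after adjustment by both measures. Rxra and Nr1h3 passed by rank alone (rho = 0.66, permutation p = 0.00201, adjusted 0.0301, and r = 0.62, p = 0.00586, adjusted 0.0527), with r = 0.67 without the 2 livers farthest out in Rxra.

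**Figure D5:**
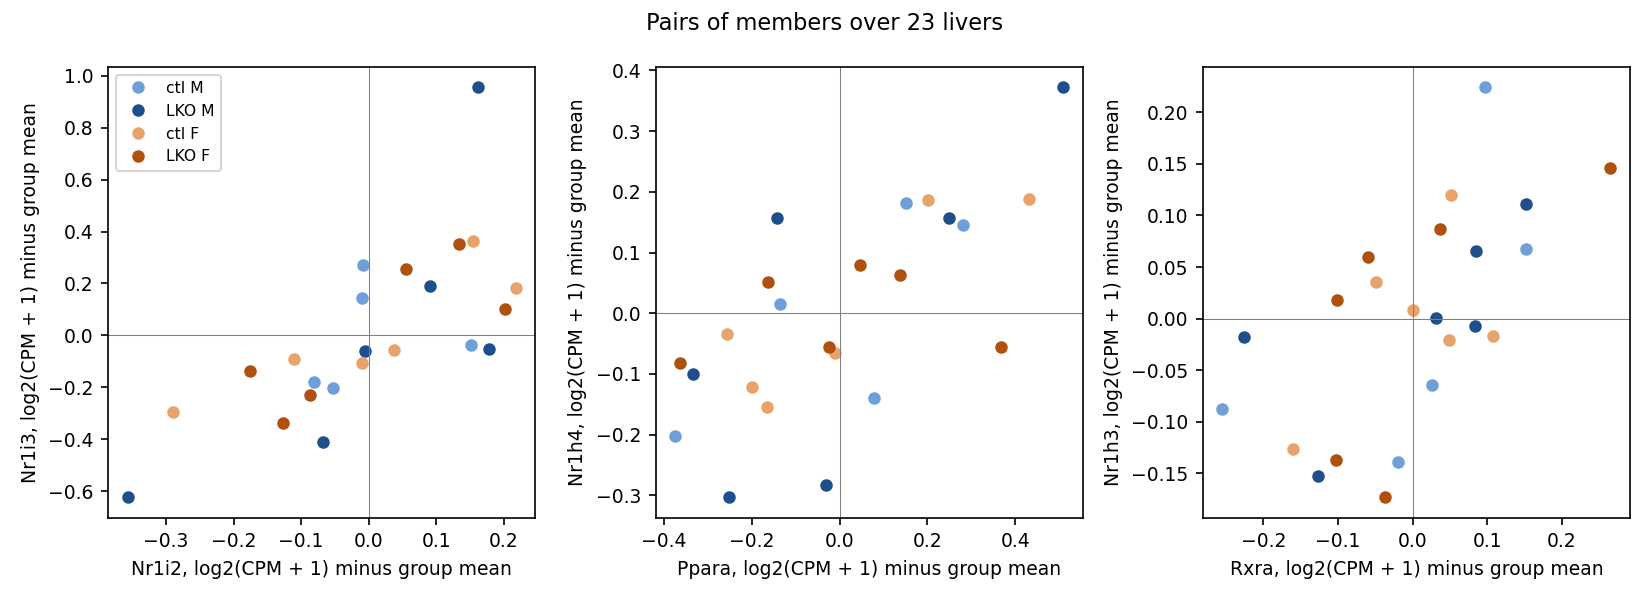
Deviation from the group mean of log2(CPM + 1) for 3 pairs of members, with each point 1 of 23 livers coloured by group (ctl, control; M, male; F, female). Points rise together in each panel, with r of 0.72, 0.68 and 0.62 from left to right.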

How the data were processed

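Poly(A) RNA of 23 livers was sequenced after dUTP library preparation, per the labels' protocols. Alignment with HISAT2 2.0.5 to mm39 is per the submitters' processing notes, and the counter is not given in the sources used here. The authors deposited 1 table per sex. It holds raw read counts per gene, a normalized signal (each count divided by 1 constant per sample, per the deposited values, not used further), FPKM, and the authors' log2 fold changes and p-values, which were read only where the authors' table is named.

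From the counts, edgeR 4.0.16 in R 4.3.3 was fitted to each sex's whole table (filterByExpr, TMM, quasi-likelihood test, Benjamini-Hochberg over all genes tested, call at an adjusted p under 0.05). The interaction, the fit with sex as a term and the comparisons of the sexes used genes in both tables. SE values come from these fits and intervals are at 95%. DESeq2 1.42.0 and limma 3.58.1 on log2(FPKM + 1) were alternatives, as were other scalings, filters, a replicate block and leaving out each liver. The model code was tested on simulated counts.

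Named were all 10 members, Cpt1a and, in each list, genes called within a sex and the gene with the lowest p per sex. Cyp2b10, Fgf21, cell type markers and a gene overlapping a member were named as well. The members and lists were chosen with earlier results of these data known. Total counts were 14224665 to 19626662 per library, and the lowest members, the coactivators, were at 2 to 13 CPM. Every pair of libraries within a group differed by more than counting noise (chi-square per degree of freedom 11.6 to 121). The promoters of the 9 members other than Ppargc1b are from RefSeq (GRCm38.p6).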

Additional observations from a re-analysis of the deposited data

Results flagged for a closer look

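In 44 sets of values (10 members and Cpt1a in 4 groups) the highest or lowest liver was compared with the rest by Dixon's criterion, which chance meets in about 1 in 20 sets. It was met in 3 sets. For Nr1i2, control male 3 was the highest of its group at 114.0 CPM. For Pparg, LKO female 1 was the lowest of its group at 13.9 CPM, and without it the log2 fold change in females was 0.37 in place of 0.27. For Rxra, LKO female 6 was the highest of its group at 619 CPM.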

How the results depend on the processing

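In LKO against control, 0 members were called in either sex, in the interaction and with sex as a term under every alternative run. Calls over all genes moved more. In males, 2 genes were called with library size alone, without a filter, and with the replicate block, 3 with at least 10 counts in every sample, 5 in a fit of all 23 samples, 114 with DESeq2, and 1 to 2 on leaving out 1 liver. In females the counts were 94 in the fit of all 23 samples, 334 with the replicate block, 559 with DESeq2, and 87 to 233 on leaving out 1 liver. The interaction called 97 genes with DESeq2 and 0 to 17 on leaving out 1 liver, most without control male 4. With sex as a term, 23 were called with the replicate block, 261 with DESeq2 and 13 to 143 on leaving out 1 liver. Female against male controls gave 991 genes and 1 member with the replicate block (Ppargc1a 0.85, adjusted p = 0.114, and Nr1i2, adjusted p = 0.0734, lost), and 2 to 4 members and 1766 to 2947 genes on leaving out 1 liver. Female against male LKO gave 2 to 4 members and 1267 to 1893 genes there. DESeq2 called 1 other nuclear receptor in males, where it called 0.826% of all genes. In females, where it called 4.09% of all genes, it called 4 PPAR-alpha targets, 3 PPAR-gamma targets and 1 coregulator, all higher. It also called 2 genes induced and 1 repressed by FXR, 1 PGC1 target and 1 other nuclear receptor there. In the interaction, where it called 0.669% of all genes, it called 1 PPAR-alpha target and 1 PXR and CAR target. The cause of these moves was not tested.

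Signs turned only for log2 fold changes near 0. In males, Ppard was 0.025 with library size alone, Nr1h4 -0.026 with the replicate block, and Ppargc1a -0.0017 with RLE factors, -0.0031 with DESeq2, -0.0016 with log2(FPKM + 1), -0.010 with log2(FPKM + 0.1) and -0.020 with the replicate block. In females, Nr1i3 was -0.0050 and -0.0057 with those FPKM pseudocounts and -0.00034 with the block. In the interaction, Ppara was 0.025 and Nr1i2 0.014 with the block, and Nr1h4 -0.0019 with library size alone and -0.0053 without a filter. With sex as a term, Ppard was -0.0010 with RLE factors and -0.00080 with DESeq2, and Rxra 0.0069 with library size alone. Female against male controls, Nr1h3 was -0.0044 with RLE factors, -0.015 with library size alone, -0.0039 with DESeq2, and -0.00092 and -0.00087 with FPKM. In LKO livers Ppard was -0.026 with library size alone.

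Leaving out 1 liver turned further signs. The ranges in males were -0.00097 to 0.21 for Ppara, -0.14 to 0.089 for Ppard, -0.035 to 0.071 for Rxra, -0.087 to 0.096 for Ppargc1a, -0.22 to 0.18 for Ppargc1b, -0.021 to 0.12 for Nr1h4, -0.17 to 0.33 for Cidec and -0.0023 to 0.087 for Nrip1. In females they were -0.054 to 0.12 for Ppara, -0.030 to 0.085 for Ppard and -0.071 to 0.086 for Nr1i3. In the interaction they were -0.18 to 0.027 for Ppara, -0.14 to 0.21 for Pparg, -0.050 to 0.18 for Ppard, -0.35 to 0.045 for Ppargc1b, -0.052 to 0.087 for Nr1h4 and -0.094 to 0.011 for Nr1i2. Ppard with sex as a term ran from -0.042 to 0.067. Between the sexes, controls gave -0.18 to 0.061 for Ppard and -0.035 to 0.063 for Nr1h3, and LKO livers -0.073 to 0.079 for Ppard and -0.017 to 0.17 for Ppargc1b.

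Livers with the same replicate number correlated between -0.49 and 0.58 in males and 0.060 and 0.28 in females, so the numbers were not taken as pairs. What depth limits was not tested.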
